A study of Homo sapiens with 12 samples.

Results

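SR proteins, hnRNPs and CLK kinases were taken as every gene of the expression table whose symbol is SRSF with a number, starts with HNRNP and a letter, or is CLK1 to CLK4. This gave 43 of 19973 listed genes, 12 SRSF, 27 HNRNP and 4 CLK. RNA came from 2 established non-small cell lung cancer lines, H460 (large cell carcinoma) and A549 (adenocarcinoma), both labelled WT. Cells of each line were left non-treated (control) or grown for 48 h with 10 µM ISP-I, and 3 libraries were made of each of the 4 groups, which gives 12. ISP-I is isovalerylspiramycin I, the active component of the macrolide antibiotic carrimycin. The labels do not say whether the controls received the solvent, or whether the libraries of a group came from separate cultures, so p values measure the spread between these libraries only. The question was which of the splicing regulators changed in mRNA level after ISP-I in each line, and whether the change differed between the lines.

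SR proteins bind exonic sequences through RNA recognition motifs and use a tail of arginine and serine repeats to help the spliceosome take up an exon. hnRNPs coat nascent transcripts, and many of them oppose SR proteins at the same exons, besides acting in mRNA export, stability and translation. CLK kinases phosphorylate the arginine and serine tail in the nucleus, which releases SR proteins from speckles, while SRPK kinases phosphorylate it in the cytoplasm and allow import by TNPO3. Many of these genes control their own mRNA through exons or introns that bring in a premature stop codon, so that the transcript is retained in the nucleus or removed by nonsense-mediated decay.

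Depth was 14225849 to 17874422 reads on genes per library. Values are FPKM, the authors' fragments scaled by listed gene length and by the total of the library, so a level is a share of a library's RNA. In RNA from whole cultures, fewer cells carrying an mRNA and less of it per cell cannot be told apart. Epithelial markers summed to 328.6 to 432.3 FPKM in the H460 libraries, where CDH1 was listed at 0 in the controls, and to 1252 to 1826 in the A549 libraries. Markers of immune, endothelial and fibroblast cells summed to 0.987 to 11.1 FPKM, with CD3E at 0 in every library. Over all genes, the log2 fold changes had a median of -0.15 in H460 and 0.02 in A549, and after median-of-ratios scaling it was 0.01 in each line (0.0116 and 0.009). That scaling raised the members' H460 changes by a median of 0.28, so H460 falls are to be read against it. In H460, ISP-I library 3 stood apart from libraries 1 and 2 for several members, and in A549 control library 3 did so.

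In H460, 37 of the 43 members reached a mean of 0.1 FPKM and were tested, and 24 of them changed at an adjusted p under 0.05 (limma on log2(FPKM + 1), Benjamini-Hochberg over all genes). Of these, 6 rose and 18 fell, which is 16.2% and 48.6% of those tested beside 27.6% and 41.5% of all genes. Past a 2-fold change as well, CLK1 rose, and HNRNPA1, SRSF5, HNRNPUL1, SRSF9 and CLK2 fell, beside 10.5% of all genes higher and 15.2% lower. The log2(FPKM + 1) scale draws the folds of low-level genes toward 0. CLK4 and HNRNPUL2 passed the adjusted p but not 2-fold on it, with ratios of means of 2.78 and 0.476. In A549, 38 members were tested, 5 rose and 13 fell, beside 30.5% and 27% of all genes. No member passed 2-fold in A549 with limma (0 also at an unadjusted p under 0.05 and with limma voom), where 4.2% of all genes were higher and 3.51% lower by that rule. At any fold, 7 members were higher and 14 lower in A549 at an unadjusted p under 0.05. Single libraries moved these counts: without A549 control library 3, 21 members were lower in A549, and past 2-fold in H460 3 members were higher and 6 lower without ISP-I library 3 and 3 were lower without ISP-I library 1 or 2. Groups that did not overlap were counted apart from the test: in H460 the ISP-I libraries of 9 members lay above all controls and of 19 below, beside 29.6% and 43.1% of all genes, and in A549 of 9 above and 14 below, beside 34.8% and 30.7%. After median-of-ratios scaling, 11 members rose and 9 fell in H460, beside 34.8% and 32.2% of all genes, so the balance there depended on the scaling.

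By family, the counts at any fold were as follows. In H460, 3 of 4 CLK genes rose and 1 fell, 2 of 11 tested SRSF genes rose and 5 fell, which is near the all-gene shares, and 1 of 22 tested HNRNP genes rose and 12 fell. Of all genes, 27.6% rose and 41.5% fell in H460. After median-of-ratios scaling, the H460 splits were 3 and 1 for CLK, 4 and 2 for SRSF, and 4 and 6 for HNRNP. The all-gene shares were then 34.8% higher and 32.2% lower. In A549, 2 CLK genes rose and 1 fell, 2 of 12 SRSF genes rose and 1 fell, and 1 of 22 HNRNP genes rose and 11 fell, and that scaling changed none of these numbers. The A549 shares were 16.7% and 8.33% for SRSF and 4.55% and 50% for HNRNP, beside 30.5% and 27% of all genes. Median log2 fold changes in H460 were 0.80 for CLK, -0.14 for SRSF and -0.40 for HNRNP, beside -0.15 for all genes, and the SRSF median turned to 0.13 and the HNRNP median was -0.15 after median-of-ratios scaling. In A549 they were 0.20, -0.02 and -0.19, beside 0.02 for all genes. A list of 3 families chosen with these data known carries no test of its own, and the medians are given as a description.

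**Figure D1:**
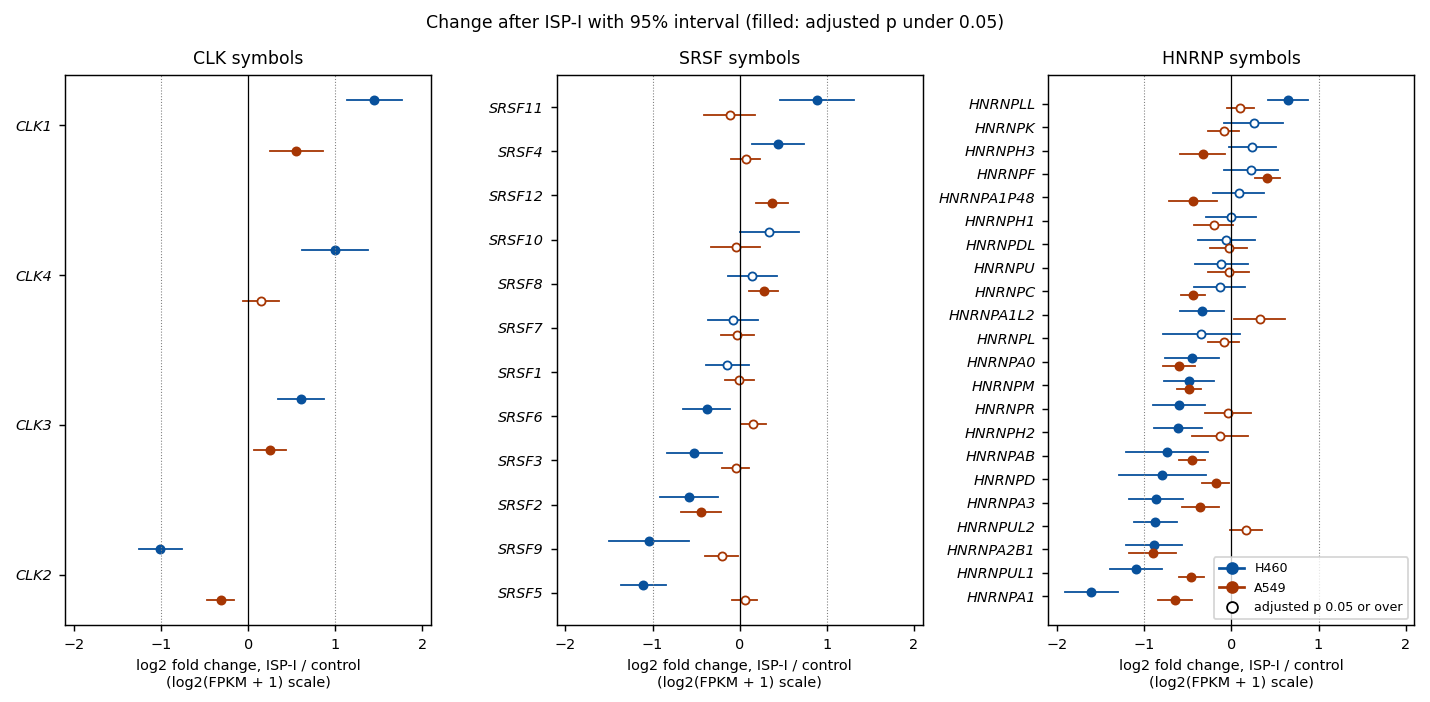
Log2 fold change after ISP-I on the log2(FPKM + 1) scale with its 95% interval for each tested member, CLK, SRSF and HNRNP symbols apart, H460 in blue and A549 in brown. Filled points passed an adjusted p under 0.05 in limma, dotted lines mark a 2-fold change, and HNRNPA1 in H460 lies lowest at -1.61 while CLK1 in H460 lies highest at 1.45.

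CLK1 and CLK2 moved in opposite directions in each line. CLK1 (chromosome 2, hg38, 200853009 to 200864744, minus strand) measured 4.26, 4.74 and 3.99 FPKM in the H460 controls and 13.4, 16.0 and 11.5 with ISP-I. In A549 it measured 4.96, 4.07 and 3.27 in the controls and 6.62, 5.65 and 7.05 with ISP-I. The groups did not overlap in either line, and in H460 the lowest ISP-I library was above the highest control library by more than the whole range of the controls. The log2 fold change was 1.45 in H460 (SE 0.138, limma adjusted p 2.81e-05), with a ratio of means of 3.14, and 0.55 in A549 (SE 0.132, adjusted p 0.00751), with a ratio of 1.57. The rise was larger in H460 by 0.89 on the log2 scale (SE 0.197, interaction adjusted p 0.00228).

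CLK2 (chromosome 1, 155262868 to 155278491, minus strand) was the CLK gene with the highest level in the controls of each line. It measured 25.6, 27.8 and 25.7 FPKM in the H460 controls and 11.96, 12.3 and 13.6 with ISP-I. In A549 it measured 15.1, 15.1 and 14.5 in the controls and 12.1, 11.2 and 12.2 with ISP-I. All ISP-I libraries lay below all control libraries in each line, and with ISP-I the H460 and A549 libraries overlapped. CLK2 fell by 1.01 on the log2 scale in H460 (SE 0.108, adjusted p 5.53e-05) and by 0.31 in A549 (SE 0.067, adjusted p 0.00438), limma with Benjamini-Hochberg. After median-of-ratios scaling its H460 change was -0.73 (limma adjusted p 0.000502), short of 2-fold. The fall was larger in H460 by -0.70 (SE 0.109, interaction adjusted p 0.000203), and by -0.40 after median-of-ratios scaling (adjusted p 0.0112). HCN3 overlaps the CLK2 span on the opposite strand by 1029 bases, and no source used here gives the strand setting of the counting.

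By FPKM, CLK3 and CLK4 were the lowest of the CLK genes in each group. CLK4 measured 1.47, 1.11 and 1.47 FPKM in the H460 controls and 3.29, 4.99 and 2.96 with ISP-I, which rested on 133 to 173 and 348 to 658 reads. It measured 1.72, 1.53 and 1.24 in the A549 controls and 1.86, 1.64 and 1.76 with ISP-I, where the groups overlapped. CLK4 rose by 0.997 on the log2 scale in H460 (SE 0.166, limma adjusted p 0.000735), and its A549 difference was 0.15 (95% interval -0.06 to 0.36, adjusted p 0.204). The change was larger in H460 by 0.85 (SE 0.197, interaction adjusted p 0.00313). CLK3 measured 2.58, 2.77 and 2.64 FPKM in the H460 controls and 4.59, 4.07 and 5.15 with ISP-I. These rested on 760 to 861 and 1387 to 1677 reads over a listed length of 20443 bases. In A549 it measured 2.001, 1.87 and 2.22 in the controls and 2.48, 2.59 and 2.73 with ISP-I. It rose by 0.61 in H460 (SE 0.114, adjusted p 0.00147) and by 0.25 in A549 (SE 0.079, adjusted p 0.0262), with no overlap of the groups in either line. The A549 call for CLK3 was lost when any of A549 control library 1, control library 2 or the 3 ISP-I libraries was left out (adjusted p up to 0.0924). EDC3 overlaps the CLK3 span on the opposite strand by 14857 bases.

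**Figure D2:**
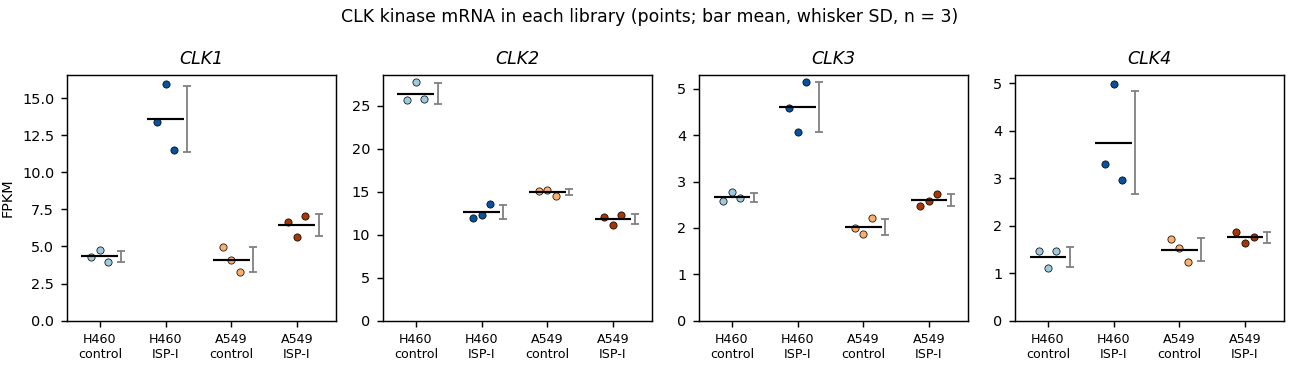
FPKM of the 4 CLK genes in each of the 12 libraries, with points for libraries, a bar for the group mean and a whisker for the SD (n = 3). CLK1 rises from a mean of 4.33 to 13.6 in H460 and from 4.10 to 6.44 in A549, while CLK2 falls from 26.4 to 12.6 and from 14.9 to 11.8.

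The summed FPKM of the 4 CLK genes was 34.7 ± 1.46 (SD, n = 3) in H460 controls and 34.6 ± 2.38 with ISP-I, and 22.6 ± 1.27 and 22.6 ± 1.42 in A549. These sums were not scaled by median of ratios. That scaling divides the H460 control libraries by 1.09 to 1.12 and the H460 ISP-I libraries by 0.894 to 0.915. The equal H460 sums thus hold for unscaled FPKM only. The make-up of the CLK sum changed. CLK1 was 12.5% ± 0.623 of it in H460 controls and 39.2% ± 4.14 with ISP-I, and 18.1% ± 2.72 and 28.4% ± 1.44 in A549. CLK2 was 76.0% ± 0.421 and 36.6% ± 4.02 in H460, and 66.3% ± 2.49 and 52.3% ± 0.815 in A549. After ISP-I in H460, CLK1 at 13.6 ± 2.23 and CLK2 at 12.6 ± 0.861 FPKM no longer differed beyond their spread, whereas CLK2 stayed the higher of the pair in A549. FPKM divides by listed lengths that run from 3658 bases for CLK2 to 20443 for CLK3. As a share of all reads, which does not, the 4 genes went from 0.0184% ± 0.000653 to 0.0240% ± 0.000902 in H460 and from 0.0129% ± 0.000555 to 0.0144% ± 0.000749 in A549.

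The promoters of CLK1 and CLK2 are printed because these kinases moved in opposite directions in the same cells. The RefSeq windows (GRCh38.p14) hold 250 bases before and 50 after the transcription start, read 5′ to 3′ on the gene's strand, at chr2:200864609-200864908 for CLK1 and chr1:155273455-155273754 for CLK2. Capitals mark every match, on either strand and run together where matches overlap, of CCAAT (the box bound by NF-Y), TGACGTCA (the cyclic AMP response element), CACGTG (an E-box), CGGAAG (an ETS core), TATAAA (the TATA box) and GGGCGG (a GC box).
CLK1: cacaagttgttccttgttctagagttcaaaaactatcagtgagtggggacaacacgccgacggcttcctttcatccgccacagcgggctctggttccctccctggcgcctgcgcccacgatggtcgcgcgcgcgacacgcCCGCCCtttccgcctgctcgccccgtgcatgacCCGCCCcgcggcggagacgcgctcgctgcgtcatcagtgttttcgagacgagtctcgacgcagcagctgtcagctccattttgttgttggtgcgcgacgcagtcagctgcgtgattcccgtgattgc
CLK2: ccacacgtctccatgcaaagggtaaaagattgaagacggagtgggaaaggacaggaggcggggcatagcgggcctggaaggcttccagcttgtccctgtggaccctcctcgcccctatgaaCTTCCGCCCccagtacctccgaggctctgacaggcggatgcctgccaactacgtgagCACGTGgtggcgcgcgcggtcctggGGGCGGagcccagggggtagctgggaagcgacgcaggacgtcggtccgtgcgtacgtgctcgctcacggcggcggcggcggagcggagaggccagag

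The table gives CLK1 a second, overlapping window at chr2:200864512-200864811, which is not printed. The printed CLK1 window held GGGCGG 2 times, both on the other strand, and so did the second. The CLK2 window held 1 E-box, 1 ETS core and 2 GC boxes, and the ETS core overlaps the GC box upstream of the E-box. Among all 35116 windows of the table, 45% held GGGCGG, 7.26% CACGTG and 19.5% CGGAAG, and among those of genes whose mean reached 5 FPKM the shares were 69.7%, 10.5% and 34%. Neither window held CCAAT or TGACGTCA, which says only that these letters are not in these 300 bases.

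Among SRSF genes, SRSF5 and SRSF9 fell more than 2-fold in H460 and did not pass the test in A549. After median-of-ratios scaling their H460 changes were -0.83 and -0.76 (limma adjusted p 0.000278 and 0.00988), neither past 2-fold. SRSF5 (chromosome 14, 69726900 to 69772005) encodes an SR protein that activates exons. It measured 40.3, 40.9 and 40.1 FPKM in the H460 controls and 16.3, 19.2 and 19.3 with ISP-I. In A549 it measured 35.5, 33.7 and 34.6 in the controls and 34.9, 36.8 and 36.4 with ISP-I. The H460 groups lay far apart, while the A549 groups overlapped. SRSF5 fell by 1.11 on the log2 scale in H460 (SE 0.113, limma adjusted p 4.18e-05), and the A549 difference was 0.06 (95% interval -0.08 to 0.20, adjusted p 0.451). The changes differed by -1.16 (SE 0.113, interaction adjusted p 4.88e-06), and by -0.86 after median-of-ratios scaling (adjusted p 6.97e-05).

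SRSF9 (chromosome 12, 120461672 to 120469748), a short SR protein, measured 38.7, 40.0 and 40.3 FPKM in the H460 controls and 16.6, 14.8 and 26.7 with ISP-I. Library 3 lay well above the other two with ISP-I and below all controls. In A549 it measured 27.2, 23.5 and 28.4 in the controls and 22.2, 23.2 and 22.5 with ISP-I, narrowly apart. SRSF9 fell by 1.04 in H460 (SE 0.20, adjusted p 0.00165), and by 1.29 without ISP-I library 3 (adjusted p 4.00e-06). Its A549 difference was -0.21 (95% interval -0.39 to -0.02, adjusted p 0.0582), and it passed there without control library 2 (-0.29, adjusted p 0.0136). The changes differed between the lines by -0.83 (SE 0.233, interaction adjusted p 0.00954), a difference that was -0.53 and did not pass after median-of-ratios scaling (adjusted p 0.0806). GATC overlaps the SRSF9 span on the opposite strand.

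SRSF2 (SC35, the speckle-resident SR protein that binds purine-rich and pyrimidine-rich exon signals alike) was the SRSF gene that fell in both lines. It measured 52.8, 55.0 and 39.9 FPKM in the H460 controls and 30.3, 32.2 and 34.5 with ISP-I. In A549 it measured 48.6, 43.8 and 58.0 in the controls and 36.4, 37.1 and 35.3 with ISP-I. The controls varied more than the ISP-I libraries, and the groups did not overlap in either line. SRSF2 fell by 0.58 in H460 (SE 0.147, limma adjusted p 0.00726) and by 0.45 in A549 (SE 0.101, adjusted p 0.00557), with a difference between the lines of -0.13 (95% interval -0.53 to 0.26, adjusted p 0.556). The H460 fall was 0.30 and did not pass after median-of-ratios scaling (adjusted p 0.118). On the opposite strand, AC005837.2 overlaps SRSF2 by 3219 bases and MFSD11 by 1469.

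SRSF11 and SRSF4 rose in H460. SRSF11, an SR-rich protein of 3′ splice sites, measured 15.6, 12.7 and 15.9 FPKM in the H460 controls and 27.7, 35.9 and 21.6 with ISP-I. In A549 it measured 18.4, 17.1 and 12.7 in the controls and 14.4, 14.02 and 15.4 with ISP-I. The H460 groups lay apart although the ISP-I libraries spread widely, and the A549 groups overlapped. It rose by 0.88 in H460 (SE 0.185, limma adjusted p 0.00272), the A549 difference was -0.11 (adjusted p 0.462), and the changes differed by 0.998 (SE 0.243, interaction adjusted p 0.00428). Without A549 control library 3, SRSF11 passed as lower in A549, at -0.27 (adjusted p 0.00244). SRSF4, one of the largest SR proteins, measured 11.8, 12.3 and 13.1 FPKM in the H460 controls and 17.8, 19.3 and 14.6 with ISP-I, and 11.2, 11.2, 10.7 and 12.5, 10.96, 11.6 in A549. It rose by 0.44 in H460 (SE 0.129, adjusted p 0.0149), a call that was lost without control library 1, control library 2 or ISP-I library 1 (adjusted p up to 0.0554).

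SRSF8, which arose as a retrocopy of SRSF2, was the SRSF gene with the largest rise in A549 among those whose mean reached 5 FPKM. It measured 8.62, 9.17 and 9.73 FPKM in the A549 controls and 11.7, 11.2 and 10.97 with ISP-I, and rose by 0.27 (SE 0.072, limma adjusted p 0.012). The call was lost without A549 ISP-I library 1 (adjusted p 0.0547). In H460 its values of 9.65 to 12.4 and 11.4 to 13.1 overlapped. SRSF12 had a mean of 0.055 FPKM in H460 controls and was not tested there; in A549 it rose from 0.488 ± 0.09 to 0.921 ± 0.15 FPKM on 26 to 74 reads (adjusted p 0.00494). SRSF3 and SRSF6 fell in H460, from means of 62.4 to 42.9 and from 29.2 to 22.2 FPKM, by 0.52 and 0.38 on the log2 scale (adjusted p 0.00888 and 0.0197), and neither passed after median-of-ratios scaling. The SRSF6 call was also lost without H460 control library 1, control library 2 or ISP-I library 1. SRSF1, SRSF7 and SRSF10 passed in neither line, with log2 differences of -0.14, -0.08 and 0.34 in H460 and between -0.05 and -0.01 in A549. After median-of-ratios scaling SRSF10 and SRSF8 passed as higher in H460, at 0.61 and 0.41 (adjusted p 0.00497 and 0.0192).

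The SRSF genes with the highest control levels were SRSF7 and SRSF3 in H460, at 63.1 ± 6.67 and 62.4 ± 9.26 FPKM, and SRSF3 and SRSF7 in A549, at 63.2 ± 3.44 and 53.8 ± 4.85. The first pair does not differ beyond its spread. SRSF5 went from 11.5% ± 0.88 to 6.38% ± 0.463 of the summed SRSF FPKM in H460, and SRSF11 from 4.17% ± 0.708 to 9.87% ± 2.23. In A549 these shares were 10.7% ± 0.175 and 11.7% ± 0.317 for SRSF5, and 4.94% ± 0.828 and 4.72% ± 0.202 for SRSF11. The whole SRSF sum was 354.4 ± 27.9 and 286.7 ± 10.3 FPKM in H460, and 324.7 ± 10.1 and 309.2 ± 1.68 in A549. It was not scaled by median of ratios, so the lower H460 sum with ISP-I holds for unscaled FPKM only.

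The HNRNP genes held most of the falls that the lines shared. HNRNPA1, the founding A/B-type hnRNP and a repressor of exon use, had 324.6, 303.3 and 312.9 FPKM in the H460 controls and 95.5, 98.8 and 113.4 with ISP-I. In A549 it had 264.9, 259.4 and 223.1 in the controls and 161.6, 157.1 and 155.8 with ISP-I. All ISP-I libraries lay far below all controls in each line. HNRNPA1 (chromosome 12, 54280193 to 54287088) fell by 1.61 on the log2 scale in H460 (SE 0.135, limma adjusted p 1.31e-05), so the level was 0.327 of the control, and by 0.65 in A549 (SE 0.084, adjusted p 0.000306), to 0.635. The fall was larger in H460 by -0.96 (SE 0.144, interaction adjusted p 0.000145). It was the member that kept a fall of over 2-fold in H460 after median-of-ratios scaling (-1.32). Reads can be shared with its near-identical copies HNRNPA1L2 and HNRNPA1P48, which had 1.89 to 2.64 and 2.01 to 2.21 FPKM in the H460 groups, so the values of these 3 genes are uncertain.

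HNRNPA2B1, the partner of HNRNPA1 in A/B particles, measured 165.7, 148.8 and 177.3 FPKM in the H460 controls and 79.0, 89.3 and 96.4 with ISP-I. In A549 it measured 162.3, 157.8 and 118.9 in the controls and 79.8, 76.4 and 75.4 with ISP-I. Control library 3 of A549 was the lowest control and still lay above all ISP-I libraries. It fell by 0.89 in H460 (SE 0.139, limma adjusted p 0.000508) and by 0.90 in A549 (SE 0.118, adjusted p 0.000316), with a difference between the lines of 0.01 (95% interval -0.38 to 0.41). After median-of-ratios scaling the changes were -0.60 in H460 and -0.92 in A549 (limma adjusted p 0.00493 and 0.000171), so their closeness depended on the scaling. Without A549 control library 3 the A549 fall was 1.04, which is past 2-fold. CBX3 and NFE2L3 overlap its span on the opposite strand.

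HNRNPUL1 and HNRNPUL2 encode related hnRNP U-like proteins that also act in the response to DNA breaks. HNRNPUL1 (chromosome 19, 41262496 to 41307787) measured 52.0, 58.5 and 67.8 FPKM in the H460 controls and 28.3, 25.5 and 27.7 with ISP-I. In A549 it measured 121.3, 118.0 and 120.0 in the controls and 89.4, 85.5 and 85.8 with ISP-I. The groups lay apart in each line, and each A549 library exceeded each H460 library. It fell by 1.10 in H460 (SE 0.131, adjusted p 0.000107) and by 0.46 in A549 (SE 0.061, adjusted p 0.000351), limma with Benjamini-Hochberg. After median-of-ratios scaling its H460 change was -0.81 (limma adjusted p 0.000701), short of 2-fold. The difference of -0.64 between the lines passed (SE 0.137, interaction adjusted p 0.00196), but after median-of-ratios scaling it was -0.33 (adjusted p 0.0742). TGFB1 overlaps HNRNPUL1 on the opposite strand by 6201 bases.

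HNRNPUL2 (chromosome 11, 62712630 to 62727457) measured 6.61, 6.69 and 6.04 FPKM in the H460 controls and 2.92, 3.26 and 3.03 with ISP-I. In A549 it measured 13.2, 12.4 and 12.1 in the controls and 15.6, 13.7 and 13.5 with ISP-I. All ISP-I libraries lay below all controls in H460 and above all controls in A549. The log2 difference was -0.87 in H460 (SE 0.106, limma adjusted p 0.00012), and 0.17 in A549, which did not pass (95% interval -0.01 to 0.35, adjusted p 0.0978). The changes differed by -1.04 (SE 0.116, interaction adjusted p 1.45e-05), and by -0.79 after median-of-ratios scaling, where they still passed. It shares 14755 bases of its span, on the same strand, with HNRNPUL2-BSCL2, a read-through gene listed at 0 in every library. How reads in such shared bases were counted is not given in the sources used here, so the HNRNPUL2 values are uncertain. Same-strand overlaps were also listed for SRSF6 with AL031681.2 (7993 bases), SRSF1 with AC015813.2 (6328), HNRNPH2 with RPL36A-HNRNPH2 (4076) and HNRNPL with AC008982.1 (3791).

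HNRNPA0, a single-exon A-type hnRNP that binds AU-rich 3′ ends, measured 41.1, 42.7 and 38.5 FPKM in the H460 controls and 27.6, 26.7 and 34.9 with ISP-I. In A549 it measured 43.98, 40.5 and 47.7 in the controls and 29.6, 27.0 and 29.3 with ISP-I. The groups lay apart in each line, with H460 ISP-I library 3 nearest to the controls. HNRNPA0 fell by 0.60 in A549 (SE 0.079, limma adjusted p 0.000329) and by 0.45 in H460 (SE 0.134, adjusted p 0.0153). The H460 call was lost after median-of-ratios scaling (-0.17, adjusted p 0.317) and without control library 2 or ISP-I library 1 (adjusted p up to 0.062).

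HNRNPLL and HNRNPF were the HNRNP genes that rose, each in a single line. HNRNPLL, a relative of HNRNPL known from CD45 splicing in lymphocytes, measured 9.84, 9.62 and 9.55 FPKM in the H460 controls and 15.9, 15.1 and 16.4 with ISP-I, and 8.48, 7.97, 8.09 and 9.03, 8.59, 8.98 in A549. The groups did not overlap in either line, narrowly so in A549, where it did not pass (0.10, adjusted p 0.219). It rose by 0.65 in H460 (SE 0.101, limma adjusted p 0.000499), with a difference from A549 of 0.55 (SE 0.098, interaction adjusted p 0.000537), which was 0.84 after median-of-ratios scaling. HNRNPF, which binds G-rich sequences, measured 148.5, 152.7 and 149.1 FPKM in the A549 controls and 202.7, 197.7 and 199.4 with ISP-I, and 188.5, 194.1, 196.4 and 225.5, 208.8, 245.1 in H460. It rose by 0.41 in A549 (SE 0.063, adjusted p 0.000738). In H460 its groups did not overlap but the difference of 0.23 did not pass (adjusted p 0.162), and after median-of-ratios scaling it did (0.52, adjusted p 0.0109). The difference between the lines was -0.18 (95% interval -0.46 to 0.09). By FPKM, HNRNPF with HNRNPK and HNRNPAB were the highest HNRNP genes in H460 with ISP-I. They had 226.5 ± 18.2, 224.7 ± 24.1 and 238.9 ± 65.3, which do not differ beyond their spread. FPKM depends on listed length, and by reads HNRNPU (22512 bases) had 22378 to 30013 there and HNRNPAB (2118 bases) 6239 to 9647.

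**Figure D3:**
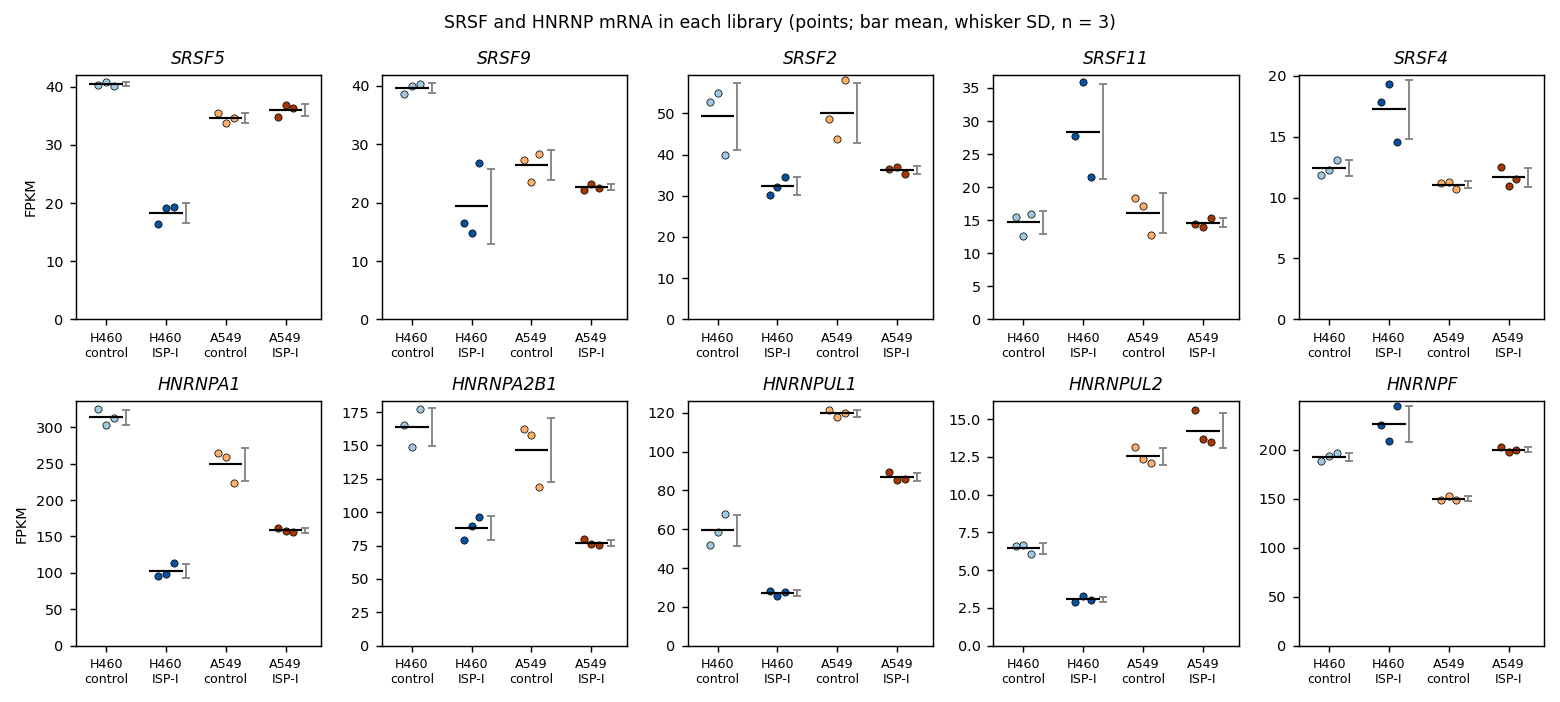
FPKM of 5 SRSF and 5 HNRNP genes in each of the 12 libraries, with points for libraries, a bar for the group mean and a whisker for the SD (n = 3). SRSF5 and HNRNPUL2 are lower with ISP-I in H460 and not in A549, HNRNPA1 and HNRNPA2B1 are lower in both lines, and the H460 ISP-I libraries of SRSF9 and SRSF11 spread widely.

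Among the remaining HNRNP genes, HNRNPAB, HNRNPD, HNRNPA3 and HNRNPM fell in both lines. HNRNPAB went from 389.6 ± 10.2 to 238.9 ± 65.3 FPKM in H460, where the ISP-I libraries measured 232.9, 176.9 and 306.9, and from 256.1 ± 2.58 to 187.0 ± 2.20 in A549. Its H460 fall was 0.74 on the log2 scale (limma adjusted p 0.0119), and 0.94 without ISP-I library 3. HNRNPD (AUF1, a factor of AU-rich mRNA decay) fell from 100.3 ± 1.79 to 59.7 ± 21.0 FPKM in H460, with ISP-I libraries at 49.4, 45.8 and 83.9, and by 0.18 in A549 (adjusted p 0.0421), a call lost without any of 5 of the 6 A549 libraries. Without ISP-I library 3, the H460 fall of HNRNPD was 1.06 in place of 0.79. HNRNPA3 fell by 0.87 in H460 and by 0.36 in A549 (adjusted p 0.000474 and 0.0104), and HNRNPM by 0.49 in each (adjusted p 0.00815 and 0.000217). HNRNPR and HNRNPH2 fell by 0.60 and 0.61 in H460 (adjusted p 0.00311 and 0.00181), with A549 differences of -0.04 and -0.13 that did not pass. Without A549 control library 3 both passed as lower there, at -0.17 (adjusted p 0.0151) and -0.30 (adjusted p 0.000823). After median-of-ratios scaling the H460 fall of HNRNPH2 was 0.33 (adjusted p 0.0346). After median-of-ratios scaling, HNRNPAB, HNRNPD, HNRNPM and HNRNPR did not pass in H460.

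In A549, HNRNPC, which coats long stretches of nascent RNA, fell from 138.9 ± 0.966 to 101.8 ± 0.596 FPKM, by 0.44 (limma adjusted p 0.000366), while its H460 difference of -0.13 did not pass (adjusted p 0.374). The changes differed by 0.31 (interaction adjusted p 0.0424), a call lost without most single libraries (adjusted p up to 0.0868), and 0.62 after median-of-ratios scaling (adjusted p 0.00135). HNRNPH3 fell by 0.33 in A549 (adjusted p 0.035), a call lost without any of 5 of the 6 A549 libraries, while in H460 it was higher by 0.24 (adjusted p 0.0968). Its changes differed between the lines by 0.57 (SE 0.16, interaction adjusted p 0.0101), and by 0.88 after median-of-ratios scaling (adjusted p 0.000335). HNRNPK, HNRNPL, HNRNPU, HNRNPDL and HNRNPH1 passed in neither line. HNRNPK held 224.7 ± 24.1 FPKM against 187.6 ± 17.8 in H460 and passed as higher there after median-of-ratios scaling (0.55, adjusted p 0.0119). HNRNPA1L2 passed as lower in H460 (-0.33, adjusted p 0.0242) and HNRNPA1P48 as lower in A549 (-0.44, adjusted p 0.0133), each on levels of 1.30 to 2.64 FPKM. The HNRNPA1L2 call was lost without any of H460 control libraries 2 and 3 and ISP-I libraries 1 and 2, and after median-of-ratios scaling (-0.13, adjusted p 0.32), and the HNRNPA1P48 call was lost without A549 ISP-I library 1 or 3. HNRNPCL1 and HNRNPCL2 had 2 reads and 1 read over the 12 libraries, and HNRNPCL3, HNRNPCL4 and HNRNPUL2-BSCL2 had none.

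Summed HNRNP FPKM was 2213 ± 69.1 in H460 controls and 1638 ± 161 with ISP-I, and 1829 ± 105 and 1488 ± 21.6 in A549. The groups did not overlap in this unscaled FPKM. Median-of-ratios factors, by which FPKM is divided, were 1.09 to 1.12 in H460 controls and 0.894 to 0.915 with ISP-I. The H460 gap is therefore narrower after that scaling, and its lack of overlap holds for unscaled FPKM only. The H460 ISP-I libraries summed to 1564, 1528 and 1823, library 3 being the highest. HNRNPA1 went from 14.2% ± 0.382 to 6.27% ± 0.183 of the sum in H460 and from 13.6% ± 0.478 to 10.6% ± 0.0817 in A549. HNRNPF went the other way, from 8.72% ± 0.326 to 13.8% ± 0.511 and from 8.22% ± 0.467 to 13.4% ± 0.04, and was the HNRNP gene with the highest FPKM in A549 with ISP-I. HNRNPK went from 8.47% ± 0.587 to 13.7% ± 0.119 in H460 and from 8.12% ± 0.199 to 9.39% ± 0.0794 in A549.

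The promoters of HNRNPA2B1 and HNRNPAB are printed as examples of HNRNP genes that fell in both lines and hold CCAAT. The windows lie at chr7:26200697-26200996 (minus strand) and chr5:178204283-178204582 (plus strand), from RefSeq GRCh38.p14, with capitals for the same 6 motifs.
HNRNPA2B1: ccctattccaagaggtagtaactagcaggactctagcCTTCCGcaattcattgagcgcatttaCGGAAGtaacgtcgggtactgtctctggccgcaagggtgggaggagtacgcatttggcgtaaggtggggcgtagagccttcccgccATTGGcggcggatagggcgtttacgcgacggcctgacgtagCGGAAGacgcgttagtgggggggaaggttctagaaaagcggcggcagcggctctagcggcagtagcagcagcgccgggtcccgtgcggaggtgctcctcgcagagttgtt
HNRNPAB: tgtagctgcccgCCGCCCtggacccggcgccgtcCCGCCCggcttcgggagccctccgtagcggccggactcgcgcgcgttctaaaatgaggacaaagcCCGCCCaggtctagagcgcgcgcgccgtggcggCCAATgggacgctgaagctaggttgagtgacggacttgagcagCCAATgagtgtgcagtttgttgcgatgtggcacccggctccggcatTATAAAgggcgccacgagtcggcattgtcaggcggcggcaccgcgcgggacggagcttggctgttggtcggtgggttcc

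HNRNPA2B1 held CCAAT once, in reverse as ATTGG, with 3 matches of CGGAAG, and HNRNPAB held CCAAT 2 times in forward orientation, a TATAAA nearer to the start and 3 matches of GGGCGG in reverse. The table had windows for 39 of the 43 members. Of 35 HNRNP windows, 22 (62.9%) held CCAAT on either strand, beside 34.6% of all 35116 windows and 35.6% of the 7914 windows of genes whose mean reached 5 FPKM. SRSF windows held it in 3 of 14 and CLK windows in 1 of 6. By gene, 20 of 24 HNRNP genes had it in at least 1 window, 2 of 11 SRSF genes and 1 of 4 CLK genes. No share by gene was taken over all genes. Of the HNRNP genes that fell in both lines and are in the table, HNRNPA0, HNRNPA2B1, HNRNPA3, HNRNPAB and HNRNPUL1 held it and HNRNPD and HNRNPM did not. HNRNPF and HNRNPLL, which rose in a line, and HNRNPK and HNRNPU, which passed in neither, held it too. So did HNRNPCL1 and HNRNPCL2, which had almost no reads. Whether CCAAT goes with the fall was not tested. TGACGTCA was in no member's window and in 1.85% of all windows. These matches describe letters and no binding.

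Members that passed in each line were counted together. Of 37 members tested in both lines, 10 fell in both (8 HNRNP, SRSF2 and CLK2), 2 rose in both (CLK1 and CLK3) and 0 passed in opposite directions, beside 2722, 2249 and 685 of 12708 genes. After median-of-ratios scaling, 5 fell in both (CLK2, HNRNPA1, HNRNPA2B1, HNRNPA3 and HNRNPUL1), 4 rose in both (CLK1, CLK3, HNRNPF and SRSF8), and HNRNPH3 passed as higher in H460 (0.53, adjusted p 0.00388) and lower in A549. In the first count, another 12 passed in H460 only, 5 in A549 only and 8 in neither. The 10 shared falls were 76.9% of the A549 falls and 55.6% of the H460 falls among these 37, beside 78.5% and 50.6% for all genes. Passing in a single line is not a difference between the lines, which the interaction of line and treatment tested. The change was higher in H460 than in A549 for 9 members and lower for 13, beside 18.6% and 34.7% of all genes. These counts turned to 13 higher and 6 lower after median-of-ratios scaling, beside 27.1% and 23.6%. Past 2-fold, none was higher (0 at an unadjusted p under 0.05 in limma, 2 with limma voom on library totals) and SRSF5 and HNRNPUL2 were lower, beside 5.93% and 10.1% of all genes, and after median-of-ratios scaling these 2 no longer passed 2-fold, while CLK1, CLK4 and SRSF11 differed upward by 1.19, 1.09 and 1.30. Without H460 ISP-I library 3 the members lower past 2-fold were 4.

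**Figure D4:**
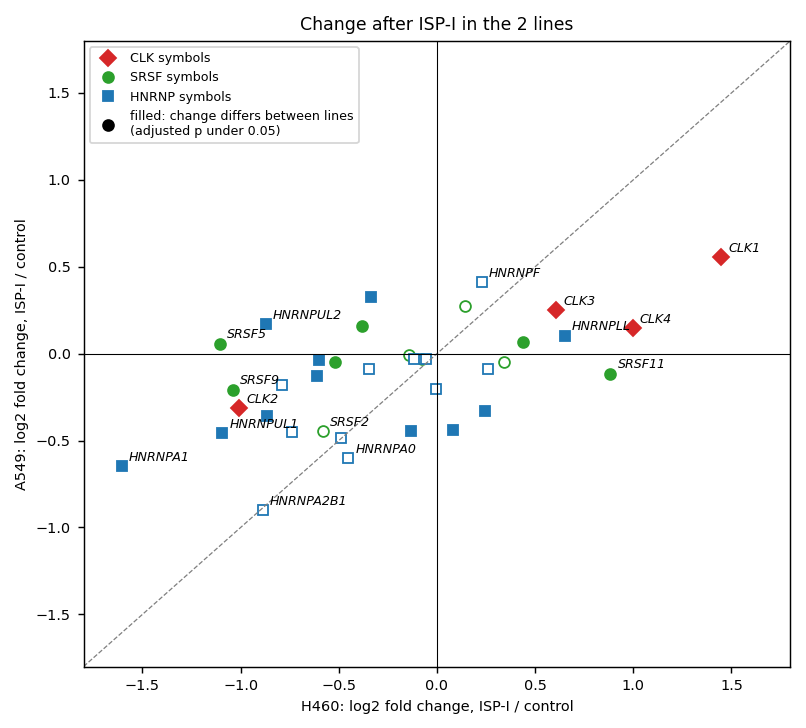
Log2 fold change after ISP-I in H460 (horizontal) against A549 (vertical) for the members tested in both lines, on the log2(FPKM + 1) scale, with the dashed line marking equal change. Filled symbols differ between the lines at an interaction adjusted p under 0.05; SRSF5 and HNRNPUL2 lie left near 0 on the vertical axis, and HNRNPA2B1 lies on the dashed line.

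Before treatment, 15 members were higher in H460 than in A549 and 4 lower (limma, 12 libraries, adjusted p under 0.05), beside 27.1% and 30.4% of all genes, and 11 of the 15 were HNRNP genes. HNRNPUL1 was the member past 2-fold on the log2(FPKM + 1) scale, at 59.5 ± 7.96 FPKM in H460 and 119.7 ± 1.67 in A549. For HNRNPUL1 the difference was -1.01 (SE 0.097, limma adjusted p 1.92e-06), beside 8.5% of all genes lower and 5.47% higher by that rule. Its fold sits at that limit, and it fell short at -0.92 without H460 control library 1 and also without H460 control library 2 or A549 control library 1. HNRNPUL2 was lower at 6.45 ± 0.357 against 12.5 ± 0.567, CLK2 higher at 26.4 ± 1.22 against 14.9 ± 0.346, and HNRNPM higher at 94.1 ± 2.15 against 56.9 ± 0.905. SRSF12 was lower at a mean of 0.055 against 0.488 FPKM, on 3 to 4 and 26 to 39 reads. Its difference on the log2(FPKM + 1) scale, which draws such low levels toward 0, was -0.50 (limma adjusted p 4.31e-05). CLK1 and CLK4 did not differ beyond their spread in the controls (0.07 and -0.09, adjusted p 0.679 and 0.612).

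The genes differ in how many annotated transcripts carry a premature stop or a retained intron. In GENCODE 44, such transcripts were 71.4% of those of CLK1, 76.9% of CLK4 and 40.7% of CLK3, and CLK2 had none of 7. CLK1, CLK3 and CLK4 rose in H460, and CLK2 fell. In the other families, high and low shares were found with both directions. SRSF4 and SRSF3 had 75% each, and SRSF4 rose and SRSF3 fell in H460. HNRNPA2B1 had 85.7% and fell in both lines. HNRNPF and HNRNPA0 had 0%, and HNRNPF rose in A549 while HNRNPA0 fell in both lines. Whether the share goes with the change was not tested. Over the families the medians were 52.3% for SRSF, 17.7% for HNRNP and 56.1% for CLK, beside 25% for 6643 protein-coding genes whose mean reached 5 FPKM. The family medians take in every member, also HNRNP genes with almost no reads, while the 6643 genes passed a filter on level. The HNRNP median is thus not comparable with the 25%. All 12 SRSF genes had an annotated nonsense-mediated decay transcript, beside 48% of the 6643 genes. The values are sums over a gene's transcripts, so which transcript changed was not measured.

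Genes around the families were read from lists of splicing factors. Of 32 SR-related proteins, which carry arginine and serine repeats without being classical SR proteins, 19 rose in H460 and 2 fell, beside 27.6% and 41.5% of all genes, with a median log2 fold change of 0.61 against -0.15. Past 2-fold 13 rose, beside 10.5% of all genes. RSRC2 went from 7.64 ± 0.41 to 56.7 ± 19.3 FPKM (2.69, SE 0.213, limma adjusted p 9.78e-06) and SCAF4, which keeps RNA polymerase II from stopping early, from 6.34 ± 0.788 to 31.1 ± 6.67 (2.11, adjusted p 1.14e-05). In A549, 7 rose and 4 fell, beside 30.5% and 27% of all genes, with a median of 0.14. By the interaction, the change was higher in H460 than in A549 for 15 and lower for 0, beside 18.6% and 34.7% of all genes. CCNL1, a cyclin of CDK11 in speckles, rose in A549 from 7.79 to 12.3 FPKM (0.61, adjusted p 0.00259) and CLASRP, a CLK4-associated protein, from 16.7 to 23.4 (0.47, adjusted p 0.000466). TRA2A and TRA2B, which bind GAA-rich exonic enhancers with SR proteins, rose in H460 from 25.9 to 42.4 and from 22.6 to 28.01 FPKM (adjusted p 0.00171 and 0.0379) and fell in A549 from 31.3 to 18.1 and from 21.3 to 15.7 (adjusted p 0.000227 and 0.00199). The difference between the lines was 1.45 for TRA2A (SE 0.161, interaction adjusted p 1.37e-05) and 0.71 for TRA2B (SE 0.119, adjusted p 0.000335).

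Of 13 genes for other SR protein kinases, phosphatases and transport, 5 rose and 6 fell in H460, and 6 rose and 2 fell in A549, beside 27.6% and 41.5% of all genes in H460 and 30.5% and 27% in A549. The PP1 catalytic subunits PPP1CC and PPP1CA, which remove phosphate from SR proteins, fell by 0.66 each in H460 (limma adjusted p 0.000888 and 0.0132) and by 0.26 and 0.67 in A549 (adjusted p 0.027 and 0.00177). SRPK2 rose in A549 from 8.24 ± 1.30 to 14.5 ± 0.0488 FPKM (0.75, adjusted p 0.000455), with PPP1R8 at 0.63 (adjusted p 0.000204). PRPF4B and TNPO1 rose in H460 by 1.05 and 0.92 (adjusted p 0.00859 and 0.00192).

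Of the hnRNP-like proteins under other symbols, 5 of 28 rose and 10 fell in H460, and 3 of 27 rose and 8 fell in A549, where of all genes 27.6% rose and 41.5% fell in H460, and 30.5% rose and 27% fell in A549. TAF15, an RNA-binding protein, fell in each line. It measured 95.02 ± 9.09 FPKM in H460 controls against 44.4 ± 5.62 with ISP-I, and 94.5 ± 2.85 against 55.5 ± 1.41 in A549. Rises were SFPQ and SYNCRIP in H460, at 0.59 and 0.54, and CIRBP and RBM3, the cold-inducible RNA-binding proteins, in A549, at 0.74 and 0.40. SFPQ fell in A549 (-0.48, adjusted p 0.00143) and RBM3 in H460 (-0.40, adjusted p 0.0219). Of 30 other splicing regulators tested, 7 rose and 10 fell in H460, and 7 rose and 13 fell in A549, to be read beside the same all-gene shares. SNW1 rose in both lines, from 22.7 ± 1.18 to 80.3 ± 12.3 and from 23.6 ± 3.62 to 56.7 ± 3.04 FPKM, and RBMS2 fell in both, by 0.90 and 0.52. ELAVL1 fell in H460 by 1.12 (limma adjusted p 5.28e-05) and RBM15 rose by 1.04, while in A549 KHSRP fell by 0.57 and ZRANB2 rose by 0.73.

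Of 76 core spliceosome genes, 20 rose and 19 fell in H460, beside 27.6% and 41.5% of all genes, and 28 rose and 7 fell in A549, beside 30.5% and 27%. In H460, LSM2, of the U6 ring, went from 37.1 ± 5.74 to 7.95 ± 1.33 FPKM (-2.09, limma adjusted p 7.69e-06) and DDX23, the U5 helicase, from 60.6 ± 4.63 to 18.9 ± 2.65, while PRPF38B went from 7.70 ± 1.60 to 44.3 ± 10.8 (2.37, adjusted p 1.28e-05) and SLU7 from 7.19 ± 1.07 to 28.8 ± 8.33. In A549, SNRPD3 and SNRNP70 fell by 0.58 and 0.48, and BCAS2 and SNRNP27 rose by 0.99 and 0.92. Of 17 nonsense-mediated decay genes, 6 rose and 5 fell in H460, and 10 rose and 1 fell in A549, with a median of 0.40, beside the all-gene shares just given for each line. UPF3B rose in both lines, from 8.88 ± 1.42 to 22.6 ± 9.39 and from 9.19 ± 3.41 to 27.2 ± 1.55 FPKM. SMG9 rose in H460 by 1.19 (adjusted p 5.12e-05), where CASC3 and EIF4A3 fell by 0.77 and 0.65, and in A549 SMG5 rose by 0.89 and SMG6 fell by 0.36.

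**Figure D5:**
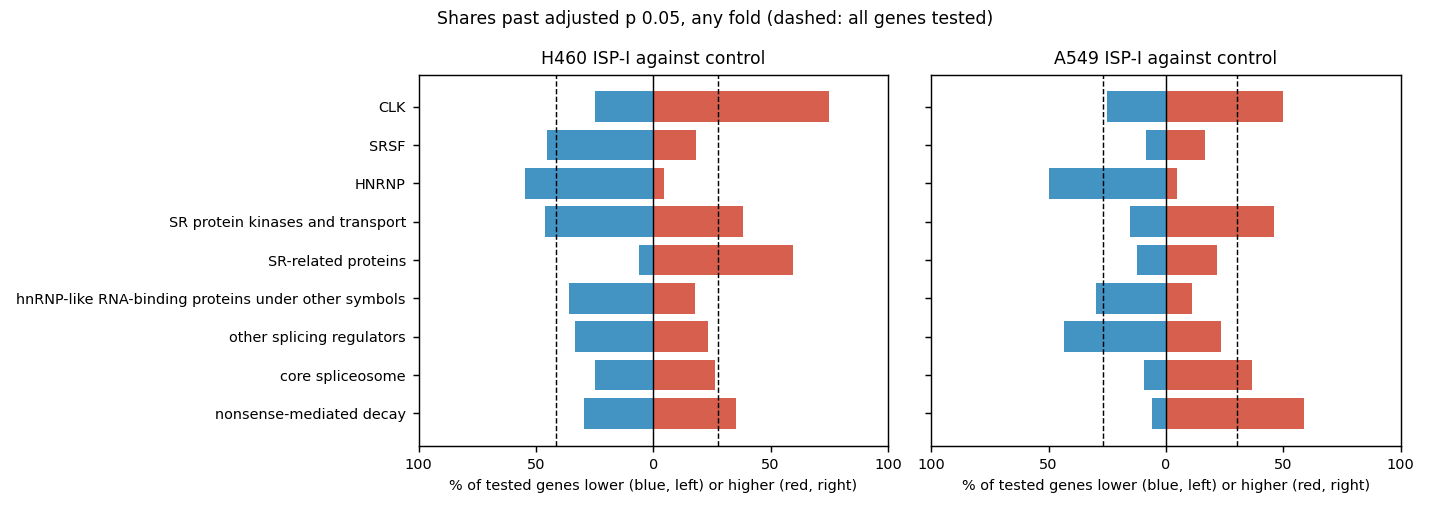
Percent of the tested genes of each family and list that passed an adjusted p under 0.05 at any fold, lower to the left and higher to the right, in H460 and A549, with dashed lines for all genes tested. HNRNP genes reach 54.5% lower in H460 and 50% in A549, and SR-related proteins reach 19 of 32 higher in H460 and 7 of 32 in A549.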

How the data were processed

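RNA from H460 and A549 cells, non-treated or treated with ISP-I, was sequenced as paired-end reads in 3 libraries per group. The authors checked read quality with FastQC, aligned to hg38 with HISAT2, used HTSeq 0.9.1 for counting and deposited FPKM per gene, scaled by listed gene length and library total. The annotation version and the strand setting are not given in the sources used here. Reads recovered from FPKM and listed length were whole for 100% of values (tolerance 0.05 of a read). Of the table, 4 lines are pieces of an annotation cell and were left out. Columns tell line and treatment only, so libraries are numbered by order within a group.

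In each line, log2(FPKM + 1) was compared with limma 3.58.1 (R 4.3.3, intensity trend) for every gene whose mean reached 0.1 FPKM, adjusted by Benjamini-Hochberg. The difference between the lines and the untreated lines came from 1 fit of 12 libraries. Fold changes of genes near 1 FPKM are drawn toward 0. Called genes passed 2-fold and an adjusted p under 0.05, and the text names which rule it uses. Members and lists were chosen with earlier results of these data known. All CLK genes, and protein-coding SRSF and HNRNP genes whose mean reached 5 FPKM and that were called, differed past 2-fold between the lines, or were among the 3 largest rises or falls of their family in a line, are given by library; of other lists, the 2 largest rises and falls per line whose mean reached 5 FPKM. Other members are given by group means; the H460 ISP-I libraries of HNRNPAB and HNRNPD, TRA2A and TRA2B in H460, SFPQ in A549 and RBM3 in H460 were added after their values were seen. A gene that this rule names is not reported here. RefSeq promoters (GRCh38.p14) and GENCODE 44 transcripts were matched by symbol and gene ID. Alternatives were a pseudocount of 0.1, no filter or 1 FPKM, quantile and median-of-ratios scaling, limma voom on recovered reads of genes with 10 reads in 3 libraries, other libraries in the fit, and each library left out. The code was tested on simulated data. Python 3.11.15, pandas 2.3.3, numpy 2.4.6 and matplotlib 3.10.9 were used.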

Additional observations from a re-analysis of the deposited data

Results flagged for a closer look

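For 2 members, H460 and A549 responded to ISP-I with changes more than 2-fold apart, by a test of the difference itself (interaction of line and treatment, limma with Benjamini-Hochberg over 13953 genes). SRSF5 differed by -1.16 on the log2 scale (adjusted p 4.88e-06), with means of 40.5 and 18.3 FPKM in H460 control and ISP-I and of 34.6 and 36.0 in A549. HNRNPUL2 differed by -1.04 (adjusted p 1.45e-05), with means of 6.45 and 3.07 FPKM in H460 and of 12.5 and 14.2 in A549. After median-of-ratios scaling the differences were -0.86 for SRSF5 and -0.79 for HNRNPUL2, neither past 2-fold. CLK1, CLK4 and SRSF11 then differed upward past 2-fold, at 1.19, 1.09 and 1.30. Groups held 3 libraries each, so no group was tested for a single far-off library.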

How the results depend on the processing

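The number of members past 2-fold in H460 was 1 higher and 5 lower. It was 2 higher and 6 lower with a pseudocount of 0.1 and with limma voom on library totals, 2 higher and 4 lower with quantile normalization, 3 higher and 1 lower after median-of-ratios scaling, 4 higher and 1 lower with limma voom and median-of-ratios factors, and 6 higher and 18 lower at any fold. With 1 library left out it ranged from 1 to 3 higher and 3 to 6 lower, with 3 higher and 6 lower without H460 ISP-I library 3 and 3 lower without H460 ISP-I library 1 or 2. In A549 it was 0 and 0, 1 lower with quantile normalization, 5 higher and 13 lower at any fold, and 0 to 1 lower with 1 library left out, the 1 being HNRNPA2B1 without control library 3. Without that library 21 members were lower in A549 at any fold in place of 13, and 17 of them were HNRNP genes in place of 11. Differences between the lines past 2-fold were 0 higher and 2 lower. They were 2 higher with a pseudocount of 0.1 and with limma voom on library totals, 2 higher and 1 lower with quantile normalization, 3 higher and 0 lower after median-of-ratios scaling, 4 higher and 0 lower with limma voom and median-of-ratios factors, 9 higher and 13 lower at any fold, and 0 to 2 higher and 1 to 4 lower with 1 library left out, with 4 lower without H460 ISP-I library 3, 1 lower without A549 ISP-I library 1 and 2 higher without A549 control library 3. Between the untreated lines, 1 member lower past 2-fold became 2 with a pseudocount of 0.1 and with limma voom on library totals, 0 after median-of-ratios scaling, and 0 to 1 with 1 library left out, and 15 were higher and 4 lower at any fold.

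Signs turned only for members that did not pass. In H460, HNRNPH1 was 0.002 with quantile normalization. After median-of-ratios scaling HNRNPC was 0.155, SRSF7 0.211, SRSF1 0.132, HNRNPDL 0.229, HNRNPU 0.169 and HNRNPH1 0.282, and with limma voom and the same factors they were 0.156, 0.215, 0.139, 0.233, 0.171 and 0.285. With 1 library left out in H460, HNRNPH1 ranged from -0.091 to 0.042, HNRNPDL from -0.165 to 0.046 and HNRNPA1P48 from -0.027 to 0.145. In A549, SRSF7 ranged from -0.104 to 0.019, HNRNPR from -0.17 to 0.049, SRSF1 from -0.059 to 0.026, HNRNPDL from -0.134 to 0.038, HNRNPU from -0.15 to 0.042 and SRSF10 from -0.191 to 0.032. The cause was not tested.

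No paired analysis was possible because the columns carry no replicate numbers of the labels, so the replicate block was not run. Depth limits SRSF12, HNRNPA1L2, HNRNPA1P48 and the HNRNPCL genes, which had 0 to 672 reads over the 12 libraries.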
